A study of Homo sapiens with 18 samples.

Results

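Identity genes of mesenchymal cells and pericytes were followed in HMC3 cells, an immortalized human line that the labels call microglial, wild type in genotype, across 6 doses of oxidized low-density lipoprotein (oxLDL). The set was chosen by gene name, with earlier results of these data known. It has 8 genes: THY1, PDGFRB, PDGFRA, CSPG4, VIM, CNN1, CALD1 and S100A4. Of these, 7 were among the 13992 gene symbols measured and all 7 passed the filter on low values. PDGFRA was not among the listed symbols and was not analysed here. Cells of 1 line were kept in MEM with fetal bovine serum and exposed for 24 h to oxLDL at 1, 2.5, 10, 50 and 100 µg/ml or to none (0 µg/ml), with 3 libraries at each dose and the same batch value for all 18. The cells at 0 µg/ml serve as the control, and nothing else differs between the groups in the labels. No source used here states whether the 3 libraries of a dose were separate cultures, so the tests below measure the spread between libraries, which may be technical. The libraries held 13919066 to 37382244 reads, as recovered from the steps of the deposited values.

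Mesenchymal cells are the connective tissue and vessel-supporting cells of the body. Pericytes are the mesenchymal cells that wrap small vessels, among them those of the brain and retina. Pericytes are kept on vessels by platelet-derived growth factor from the endothelium, which acts on the receptor PDGFRB, and they are usually recognized by PDGFRB together with the surface proteoglycan CSPG4, also called NG2. THY1, or CD90, is a surface protein of fibroblasts and mesenchymal stromal cells. Vimentin (VIM) forms the intermediate filaments of mesenchymal cells, calponin 1 (CNN1) and caldesmon (CALD1) bind actin in contractile cells, and S100A4 is a calcium-binding protein often used as a fibroblast marker. Microglia are derived from the yolk sac and belong to the macrophage lineage, which is marked by other genes.

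Promoter sequences are shown for PDGFRB and CNN1, whose transcripts fell at the highest dose, and for CSPG4 and VIM, whose transcripts were not called at any dose. Each runs from 250 bases before to 50 bases after a start of the gene, in RefSeq on GRCh38.p14. The CSPG4 window lies inside the gene (75674322 to 75713466), so it is not at the outermost start as the others are. The capitals mark the CCAAT box, searched as CCAAT on both strands. An entry was found for 7 of the 8 genes, and THY1 was the one without.
PDGFRB, chr5:150155796-150156095, minus strand: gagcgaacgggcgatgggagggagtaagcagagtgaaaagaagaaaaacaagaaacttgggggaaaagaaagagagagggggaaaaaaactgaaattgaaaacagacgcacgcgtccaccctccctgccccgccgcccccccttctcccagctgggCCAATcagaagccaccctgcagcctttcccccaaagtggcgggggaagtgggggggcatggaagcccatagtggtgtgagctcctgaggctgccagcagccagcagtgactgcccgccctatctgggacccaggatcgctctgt
CNN1, chr19:11538601-11538900, plus strand: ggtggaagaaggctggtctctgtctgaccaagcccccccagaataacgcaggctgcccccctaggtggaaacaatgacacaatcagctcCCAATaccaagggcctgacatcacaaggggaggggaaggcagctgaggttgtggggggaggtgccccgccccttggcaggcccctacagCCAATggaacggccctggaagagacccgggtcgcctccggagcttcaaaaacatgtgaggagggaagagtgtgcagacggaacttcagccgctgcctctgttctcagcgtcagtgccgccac
CSPG4, chr15:75712799-75713098, minus strand: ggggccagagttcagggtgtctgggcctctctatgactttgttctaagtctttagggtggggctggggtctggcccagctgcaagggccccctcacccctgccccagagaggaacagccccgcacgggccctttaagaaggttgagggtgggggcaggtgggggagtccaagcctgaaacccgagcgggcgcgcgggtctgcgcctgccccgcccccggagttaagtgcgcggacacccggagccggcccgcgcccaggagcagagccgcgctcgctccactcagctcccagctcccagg
VIM, chr10:17227991-17228290, plus strand: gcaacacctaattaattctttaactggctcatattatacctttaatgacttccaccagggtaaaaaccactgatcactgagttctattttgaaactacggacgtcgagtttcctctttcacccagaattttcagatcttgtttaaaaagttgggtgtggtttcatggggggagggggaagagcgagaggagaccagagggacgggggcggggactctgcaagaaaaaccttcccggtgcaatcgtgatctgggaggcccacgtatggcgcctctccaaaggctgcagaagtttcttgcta
The PDGFRB window holds 1 CCAAT box, 94 bases upstream of the gene start, and the CNN1 window holds 2, at 161 and 72 bases upstream. The windows of CSPG4, VIM and S100A4 hold 0. CALD1, which was not called either, has 4 windows, and 2 of them hold a CCAAT box. The box therefore did not separate PDGFRB and CNN1 from the genes that were not called. THY1, which also fell, has no entry and could not be compared. A CCAAT box was present in 34.6% of the 35116 promoters of the same length. The letters GGGCGG were found on one strand or the other in all 4 windows and in 45.0% of all promoters. The CArG box, the motif of serum response factor, was in 0 of the 4 windows and in 1.29% of all promoters. These matches describe the sequences and are no measure of binding.

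In untreated cells the 7 genes spanned a wide range of levels. FPKM, the deposited unit, scales the fragments of a gene by transcript length and by library total, so levels of different genes can be set side by side. VIM averaged 725 ± 26 FPKM (SD, n = 3 here and below) and was number 84 from the top among the 13992 listed genes. CALD1 averaged 112 ± 3.4 FPKM and THY1 96.5 ± 2.8 FPKM, numbers 591 and 687 from the top. CNN1 averaged 34.1 ± 1.9 FPKM. The lower members were PDGFRB at 8.76 ± 0.46 FPKM, CSPG4 at 6.32 ± 0.53 FPKM and S100A4 at 4.65 ± 0.11 FPKM. In that order no 2 neighbours overlapped in their 3 libraries at 0 µg/ml.

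Markers of other cell types were also looked up, and several had levels in the range of the 7 genes. Of 34 markers of microglia and macrophages, 27 were not among the listed symbols, including the receptors CSF1R and CX3CR1, the phosphatase PTPRC (CD45), the transcription factor SPI1 and the microglial genes TMEM119, P2RY12, AIF1 and TREM2. Among the 7 listed ones were the lysosomal protein CD68 (12.3 ± 0.28 FPKM at 0 µg/ml), the transcription factor RUNX1 (7.80 ± 0.25 FPKM) and the receptor kinase MERTK (3.21 ± 0.27 FPKM). A symbol that is not listed gives no level: ACTG1, ACTN4 and ZYX, which most cells express, were not listed either. The label of the line could therefore not be checked on those markers. Of 12 endothelial markers 4 were listed, summing to 2.69 to 3.36 FPKM. Of 15 epithelial markers 8 were listed, summing to 505 to 517 FPKM, of which KRT18 made 363 ± 5.2 FPKM and KRT8 146 ± 3.1 FPKM. The astrocyte list was led by GJA1, a gap junction protein of many cell types (38.1 ± 1.4 FPKM), the oligodendrocyte list by CNP (35.8 ± 0.31 FPKM) and the neuron list by TUBB3 (31.6 ± 0.86 FPKM).

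**Figure D1:**
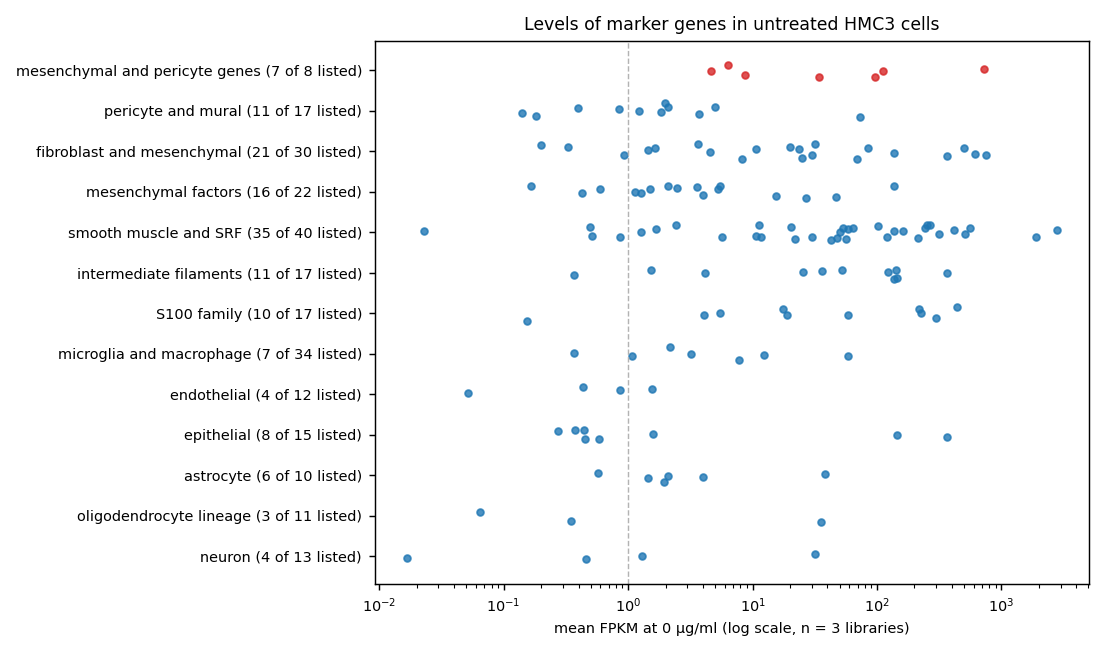
Mean FPKM at 0 µg/ml (log scale, 3 libraries) of each listed gene, 1 point per gene, by gene group, with the 7 listed mesenchymal and pericyte genes in red and the number listed beside each name. The red points run from 4.65 FPKM for S100A4 to 725 FPKM for VIM, and the dashed line stands at 1 FPKM.

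Within the mesenchymal lineage the pattern was uneven. Among 30 fibroblast and mesenchymal surface and matrix genes 21 were listed, and they summed to 2630 to 2782 FPKM at 0 µg/ml. The most abundant were P4HB, which folds collagen chains (754 ± 17 FPKM), fibronectin FN1 (616 ± 47 FPKM), the collagen chain COL1A1 (496 ± 25 FPKM) and the matrix protein SPARC (365 ± 20 FPKM). COL1A2, the partner chain of COL1A1 in type I collagen, was at 0.922 ± 0.093 FPKM, and the fibroblast genes COL3A1, DCN and LUM were not among the listed symbols. Of 17 pericyte and mural cell markers 11 were listed, and MCAM (CD146), an adhesion protein of pericytes, stood at 73.0 ± 1.3 FPKM. MCAM shares exonic bases with CBL on the opposite strand. The next 3 were the transcription factors FOXC1 (4.95 ± 0.33 FPKM) and ZIC1 (3.68 ± 0.27 FPKM) and the receptor NOTCH3 (2.09 ± 0.18 FPKM). RGS5, a signalling regulator high in brain pericytes, was at 0.183 ± 0.021 FPKM. Smooth muscle actin ACTA2 was at 0.516 ± 0.084 FPKM, and myosin MYH11 and desmin DES were not among the listed symbols, while CNN1 and CALD1 were well above these. COL1A2, RGS5, ACTA2 and the symbols not listed were named after their values were seen.

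In the dose series, 3 of the 7 genes fell, namely the surface proteins THY1 and PDGFRB and the actin-binding CNN1, and 0 rose. All 3 fell at 100 µg/ml and 2 of them, THY1 and PDGFRB, also at 50 µg/ml, when called at an adjusted p under 0.05 in limma (Benjamini-Hochberg over 12127 genes). The background is 15.5% of all tested genes called at 100 µg/ml, 7.94% higher and 7.51% lower. At 50 µg/ml 7.47% were called, 3.69% lower, and at 10 µg/ml 0.0412%. At 1 and 2.5 µg/ml it was 0%. At 1, 2.5 and 10 µg/ml limma called 0 of the 7, and limma-voom on recovered reads also called 0. An unadjusted limma p under 0.05 was seen there for 1 of the 7, THY1 at 10 µg/ml. At that dose 1185 of the 12127 tested genes had one. The median log2 fold change of the 7 at 100 µg/ml was -0.085, beside -0.0037 over all tested genes. CSPG4, VIM, CALD1 and S100A4 were not called at any dose. In these bulk libraries fewer cells of a kind and less RNA per cell cannot be told apart.

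**Figure D2:**
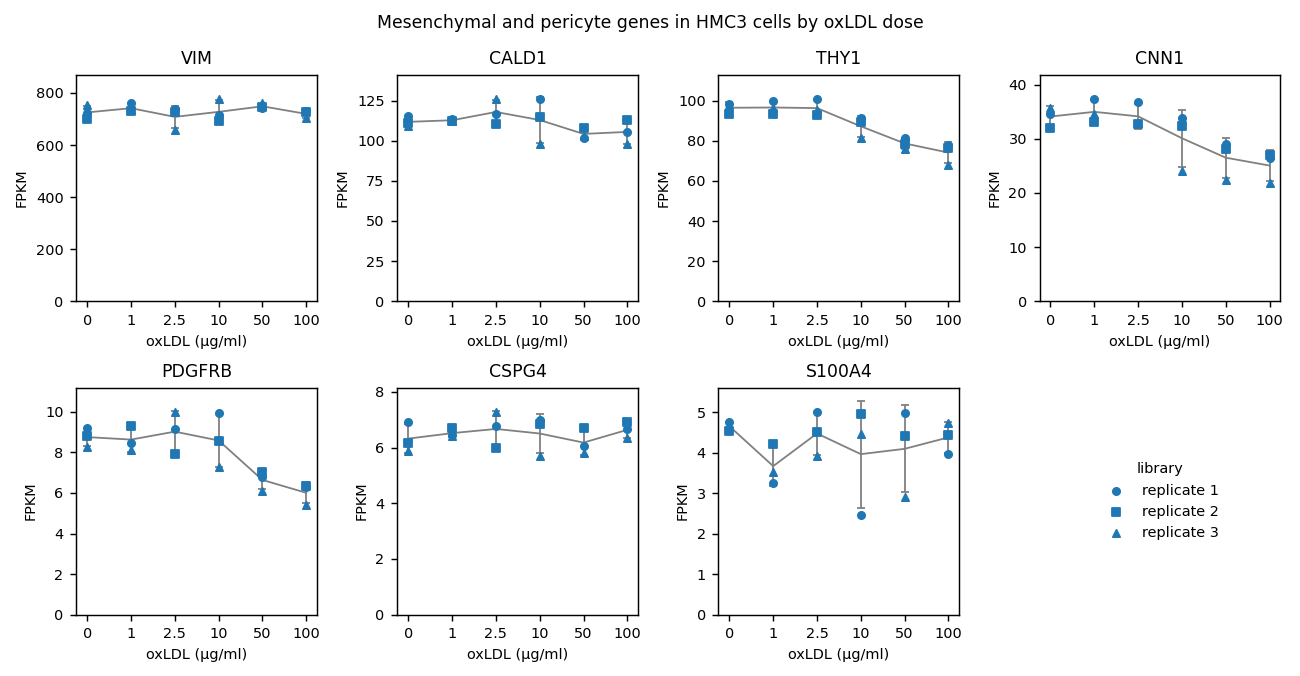
FPKM of each gene against the oxLDL dose in µg/ml, with 1 marker per library (shape by replicate number) and the line and bars giving the mean and SD of 3 libraries. THY1, PDGFRB and CNN1 are lower at the right, at 74.2, 6.01 and 25.0 FPKM at 100 µg/ml, while VIM, CALD1, CSPG4 and S100A4 overlap their libraries of 0 µg/ml there.

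THY1, a glycophosphatidylinositol-anchored surface protein with roles in adhesion (chromosome 11, 119415476 to 119424985 in RefSeq on GRCh38.p14, as for all positions), had the smallest error of the genes that fell. Its FPKM was 98.5, 93.3 and 97.9 at 0 µg/ml, 100, 93.5 and 96.5 at 1 µg/ml, then 101, 92.8 and 95.3 at 2.5 µg/ml. It was 91.3, 89.2 and 81.4 at 10 µg/ml, 81.7, 78.6 and 76.0 at 50 µg/ml, then 78.1, 76.2 and 68.2 at 100 µg/ml. From 10 µg/ml upward every library lay below every library at 0 µg/ml. Such a separation was seen for 13.3% of all tested genes at 50 µg/ml and 16.9% at 100 µg/ml. The dose groups of 50 and 100 µg/ml overlapped each other. THY1 fell by 23.2% at 100 µg/ml, to 74.2 ± 5.3 FPKM against 96.5 ± 2.8 FPKM at 0 µg/ml (log2 fold change -0.38, SE 0.052, adjusted p = 0.0001 by limma). It fell to 78.8 ± 2.8 FPKM at 50 µg/ml (log2 fold change -0.29, adjusted p = 0.0025). At 10 µg/ml the groups did not overlap, as for 6.84% of all tested genes that were lower there, but the log2 fold change of -0.15 was not called (adjusted p = 0.50). THY1 rested on 5355 to 16078 reads per library. It shares 632 exonic bases with AP003396.5 on the opposite strand, which was not among the listed symbols.

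PDGFRB, the receptor tyrosine kinase through which pericytes are recruited (chromosome 5, 150113839 to 150155845), had the largest log2 fold change of the 7 at 100 µg/ml. Its FPKM was 9.20, 8.80 and 8.28 at 0 µg/ml, 8.48, 9.30 and 8.13 at 1 µg/ml, then 9.16, 7.93 and 9.99 at 2.5 µg/ml. It was 9.93, 8.54 and 7.31 at 10 µg/ml, 6.78, 7.03 and 6.12 at 50 µg/ml, then 6.28, 6.34 and 5.40 at 100 µg/ml. The libraries up to 10 µg/ml overlapped those at 0 µg/ml, and all 6 libraries at 50 and 100 µg/ml lay below all others in the series. Against the untreated libraries alone, 13.3% of all tested genes were lower without overlap at 50 µg/ml and 16.9% at 100 µg/ml. It rested on 553 to 1747 reads per library. PDGFRB fell by 31.4% at 100 µg/ml, to 6.01 ± 0.52 FPKM against 8.76 ± 0.46 FPKM at 0 µg/ml (log2 fold change -0.51, SE 0.097, adjusted p = 0.0018 by limma). At 50 µg/ml it fell to 6.64 ± 0.47 FPKM (log2 fold change -0.37, adjusted p = 0.027), a call lost on removal of untreated replicate 1 or 2 (adjusted p = 0.11 and 0.069) or of replicate 1 or 3 of the dose itself (0.055 and 0.12).

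CNN1, a calponin of smooth muscle and other contractile cells (chromosome 19, 11538851 to 11550323), fell with a wider spread. Its FPKM was 34.6, 32.0 and 35.7 at 0 µg/ml, 37.4, 33.0 and 34.5 at 1 µg/ml, then 36.8, 32.6 and 32.9 at 2.5 µg/ml. It was 33.9, 32.3 and 24.1 at 10 µg/ml, 29.0, 28.1 and 22.3 at 50 µg/ml, then 26.5, 26.9 and 21.8 at 100 µg/ml. Replicate 3 was the lowest at each of the 3 upper doses, and at 50 and 100 µg/ml every library lay below those at 0 µg/ml, as for 16.9% and 13.3% of all tested genes at 100 and 50 µg/ml. CNN1 fell by 26.6% at 100 µg/ml, to 25.0 ± 2.8 FPKM against 34.1 ± 1.9 FPKM at 0 µg/ml (log2 fold change -0.44, SE 0.12, adjusted p = 0.015 by limma). This call depended on single libraries, with an adjusted p of 0.089 after removal of replicate 3 of the 100 µg/ml group, and of 0.051 or 0.058 after removal of replicate 1 or 3 of the untreated group. At 50 µg/ml the log2 fold change of -0.37 missed the threshold (adjusted p = 0.068), and passed it when replicate 3 at 10 µg/ml was left out (0.023).

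A slope over all 18 libraries, in log2 FPKM per unit of log2(dose + 1), gave the same 3 genes. It was -0.061 for THY1 (SE 0.0064, limma adjusted p = 1.0e-06), -0.080 for PDGFRB (SE 0.013, adjusted p = 0.00013) and -0.076 for CNN1 (SE 0.013, adjusted p = 0.00022), beside 25.6% of all tested genes called, 12.6% with a falling slope. CALD1 had a slope of -0.019 (SE 0.0084) that was not called (adjusted p = 0.099). A moderated F test of any change over the 6 doses also called these 3 and no other member (adjusted p = 0.00011, 0.0018 and 0.019 by limma), beside 15.4% of all tested genes. Between 100 and 50 µg/ml no further change was called for THY1, PDGFRB or CNN1, with log2 fold changes of -0.09, -0.14 and -0.08, and limma called 0.28% of all genes there. The 95% intervals of these differences reached -0.20, -0.34 and -0.32.

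**Figure D3:**
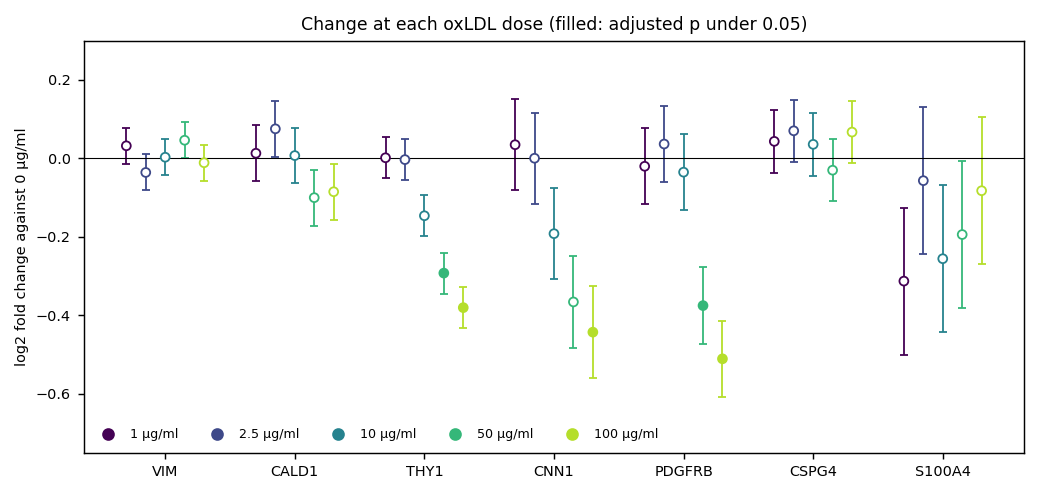
Log2 fold change of each gene at 1, 2.5, 10, 50 and 100 µg/ml against 0 µg/ml, with bars of 1 limma SE and filled points for an adjusted p under 0.05. The filled points are THY1 and PDGFRB at 50 and 100 µg/ml and CNN1 at 100 µg/ml.

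CSPG4, the other usual surface marker of pericytes (chromosome 15, 75674322 to 75713466), did not pass the test at any dose. Its FPKM was 6.66, 6.91 and 6.34 at 100 µg/ml, against 6.90, 6.17 and 5.88 at 0 µg/ml. These groups overlap, and the log2 fold change of 0.07 had a 95% interval of -0.10 to 0.24 (adjusted p = 0.65 by limma). Pseudogene copies of CSPG4 are annotated on chromosome 15, so how reads were divided among the copies is uncertain. CSPG4 also shares 563 exonic bases with AC105020.4 on the opposite strand, which was not among the listed symbols. PDGFRB and CSPG4 exchanged places: within each of the 3 libraries at 100 µg/ml PDGFRB was the lower. The ratios of PDGFRB to CSPG4 were 0.943, 0.918 and 0.852 there, against 1.33, 1.42 and 1.41 at 0 µg/ml. The ratio averaged 1.32, 1.35 and 1.32 at 1, 2.5 and 10 µg/ml and 1.08 at 50 µg/ml. A ratio within a library does not depend on the library total, and the ratios at 100 and 0 µg/ml did not overlap. This ratio and those below were chosen after the values were seen and are descriptions without a test.

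VIM, the most abundant of the 7 (chromosome 10, 17228241 to 17237593), had 729, 727 and 703 FPKM at 100 µg/ml, against 722, 701 and 752 FPKM at 0 µg/ml. These values overlap, the log2 fold change was -0.01, and its 95% interval of -0.11 to 0.09 was the narrowest of the 7 (adjusted p = 0.92 by limma). Over all 18 libraries VIM ranged from 659 to 778 FPKM, from 21077 to 58507 reads per library. VIM-AS1, which shares exonic bases with VIM on the opposite strand, stood at 0.782 FPKM at 0 µg/ml. The ratio of THY1 to VIM was 0.107, 0.105 and 0.0970 at 100 µg/ml, against 0.136, 0.133 and 0.130 at 0 µg/ml, without overlap.

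CALD1, the actin and myosin regulator caldesmon (chromosome 7, 134711499 to 134970729), had 106, 113 and 97.7 FPKM at 100 µg/ml, against 115, 111 and 109 FPKM at 0 µg/ml. The groups overlap, and the log2 fold change of -0.08 was not called (95% interval -0.23 to 0.07, adjusted p = 0.49 by limma). At 50 µg/ml its values of 102, 108 and 103 FPKM lay below all 3 untreated ones, as for 13.3% of all tested genes, without a call (adjusted p = 0.45). The gene gives rise to a smooth muscle form and a form of other cells, which a value per gene cannot separate. The ratio of the contractile marker CNN1 to CALD1 was 0.251, 0.238 and 0.223 at 100 µg/ml, against 0.299, 0.289 and 0.328 at 0 µg/ml. These ratios did not overlap, and at 50 µg/ml they ran from 0.216 to 0.286.

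S100A4 (chromosome 1, 153543621 to 153545806) was measured from only 29 to 93 reads per library, so counting alone gives an error of up to 18.6% of a value. It had 3.97, 4.43 and 4.73 FPKM at 100 µg/ml, against 4.76, 4.55 and 4.65 FPKM at 0 µg/ml. The lowest values of the series were 2.47 FPKM in 1 library at 10 µg/ml and 2.90 FPKM in 1 library at 50 µg/ml, each beside libraries of the same dose above 4. No difference was detectable at this depth at 100 µg/ml (log2 fold change -0.08, 95% interval -0.48 to 0.31, adjusted p = 0.83 by limma). All 3 libraries at 1 µg/ml, at 3.26, 4.21 and 3.53 FPKM, lay below those at 0 µg/ml, as for 4.63% of all tested genes that were lower there, and the difference was not called (adjusted p = 1.00).

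**Figure D4:**
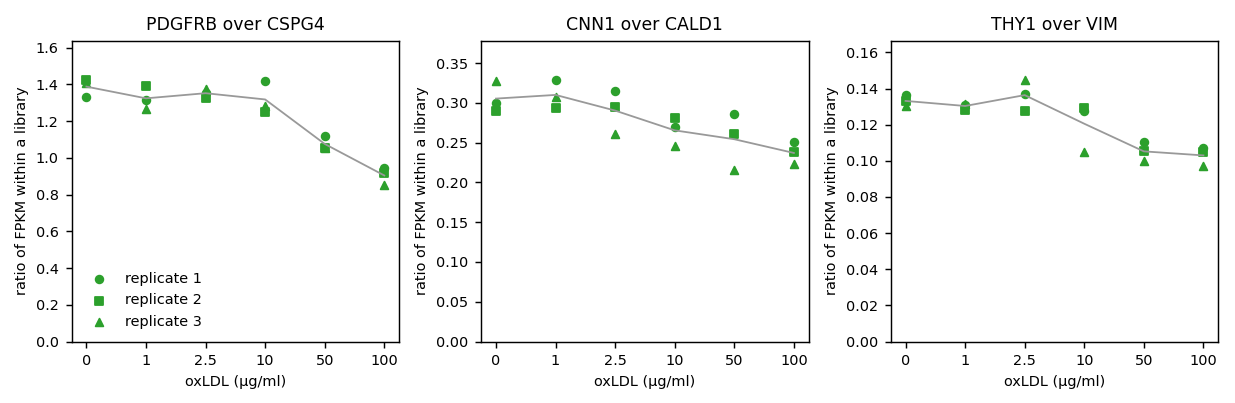
Ratio of FPKM within a library, PDGFRB to CSPG4, CNN1 to CALD1 and THY1 to VIM, against the oxLDL dose in µg/ml, with 1 marker per library and a line through the means of 3. The ratio of PDGFRB to CSPG4 lies between 1.25 and 1.42 up to 10 µg/ml and between 0.852 and 0.943 at 100 µg/ml.

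Libraries of 1 dose differed from each other in ways that several of the genes shared. PDGFRB and CSPG4 ordered the 3 libraries in the same way at all 6 doses, although only PDGFRB was called with dose, and each shared its order with CALD1 at 4 doses. Replicate 3 gave the lowest value of its dose for 5 of the 7 genes at 10 µg/ml, for 5 at 50 µg/ml and for 6 at 100 µg/ml. In the lower groups replicate 2 was lowest most often: for 4 genes without oxLDL, 4 with 1 µg/ml and 5 with 2.5 µg/ml. The share of all tested genes with their lowest value in these libraries was not counted. At 10 µg/ml replicate 3 held the lowest THY1, CNN1, PDGFRB, CALD1 and CSPG4 and the highest VIM, at 778 FPKM. Replicate 3 had the lowest depth of its dose at 50 and 100 µg/ml and the highest at 10 µg/ml. The part of these library differences in the results was not tested beyond leaving libraries out. Without all 6 libraries numbered 3, a choice made after seeing the data, THY1, PDGFRB and CNN1 were all 3 called lower at 100 µg/ml, and the count at 50 µg/ml was again 2.

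Genes that act with the PDGF receptors were few. The ligands PDGFA, PDGFB, PDGFC and PDGFD and the activating proteases PLAT and FURIN formed a list of 6, of which 5 were tested. At 100 µg/ml 1 member fell and 1 rose, beside 7.51% of all tested genes lower and 7.94% higher. The median log2 fold change of the list was -0.15. PDGFB, a ligand of PDGFRB, fell to 0.355 ± 0.13 FPKM at 100 µg/ml, against 0.845 ± 0.072 FPKM at 0 µg/ml (log2 fold change -0.66, adjusted p = 0.0014 by limma). The low level makes this log2(FPKM + 0.5) value an understatement. FURIN, a protease that processes proprotein chains, rose to 12.9 ± 0.42 FPKM, against 11.1 ± 0.44 FPKM (log2 fold change 0.22, adjusted p = 0.0044). PDGFC stood at 2.57 ± 0.17 FPKM, against 2.91 ± 0.027 FPKM (adjusted p = 0.056). Its falling slope over the doses was called (limma adjusted p = 0.0019), as was the slope of 25.6% of all tested genes. A second gene of the list was called lower with limma-voom, with equal medians, with quantile normalization or without the variance trend, which makes 2. The FURIN call was lost without the 6 libraries numbered 3 (adjusted p = 0.057).

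Of 8 tested pericyte and mural cell markers limma called 0 at 100 µg/ml, beside 15.5% of all tested genes. Limma-voom also called 0 of the 8, and 2 had an unadjusted limma p under 0.05, beside 3403 of all 12127 tested genes. MCAM had 70.5 ± 6.3 FPKM at 100 µg/ml, against 73.0 ± 1.3 FPKM at 0 µg/ml, and NOTCH3 had 2.24 ± 0.10 FPKM, against 2.09 ± 0.18 FPKM. Over the dose series 2 of the 8 had a called slope, near the 25.6% of all tested genes with one. It was falling for FOXC1 (limma adjusted p = 0.021) and rising for the transcription factor TBX18 (0.038), which was named after its value was seen.

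Fibroblast and mesenchymal surface and matrix genes went both ways. Of 19 tested 3 rose and 4 fell at 100 µg/ml, beside 7.94% of all tested genes higher and 7.51% lower. The median log2 fold change of the list was -0.053. NT5E (CD73), an enzyme that with THY1 and ENG is used to define mesenchymal stromal cells, rose to 8.02 ± 0.47 FPKM, against 4.57 ± 0.17 FPKM at 0 µg/ml (log2 fold change 0.75, SE 0.060). The hyaluronan receptor CD44 rose to 122 ± 9.7 FPKM, against 84.3 ± 0.85 FPKM (log2 fold change 0.52), and LOX, which crosslinks collagen, rose by a log2 fold change of 0.34. CD44 and LOX share some exonic bases with genes on the opposite strand. Of the genes that fell, COL1A1 had a log2 fold change of -0.48, SPARC -0.43, FN1 -0.34 and COL5A1, named after its value was seen, -0.46. The calls of FN1 (highest adjusted p = 0.11) and COL5A1 (0.11) were lost in 5 and 4 of 29 alternatives. The count of falling genes was 2 without replicate 1 or 3 at 100 µg/ml or without replicate 1 at 0 µg/ml. Of the 3 stromal cell surface genes, THY1 thus fell and NT5E rose at 100 µg/ml, and ENG was not called there (log2 fold change 0.11, adjusted p = 0.13 by limma). Over the dose series the rising slope of ENG was called (limma adjusted p = 0.0047), as was the slope of 25.6% of all tested genes.

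Among 14 tested transcription factors of mesenchymal cells 2 rose and 2 fell at 100 µg/ml, beside 7.94% of all tested genes higher and 7.51% lower. RUNX2, a factor of bone and cartilage formation, fell to 2.25 ± 0.15 FPKM, against 3.98 ± 0.16 FPKM at 0 µg/ml (log2 fold change -0.70, SE 0.060), and PRRX2 fell by 0.58 on the log2 scale. FOXD1, a factor of stromal progenitors in the kidney and the most abundant of the list, rose to 166 ± 9.3 FPKM, against 136 ± 1.3 FPKM (log2 fold change 0.28), and TCF21, a factor of fibroblast precursors, rose by a log2 fold change of 0.38. NR2F2, FOXC2 and TWIST1, the next in abundance, were not called at 100 µg/ml. They stood at 46.8, 25.2 and 14.1 FPKM there, against 46.7, 26.7 and 15.4 FPKM at 0 µg/ml. The falling slopes of FOXC2 and TWIST1 were called (limma adjusted p = 0.041 and 0.024), beside 25.6% of all tested genes with a called slope.

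Smooth muscle contractile genes and other targets of serum response factor form most of the list to which CNN1 is closest. The list also holds the regulators SRF, MRTFA, MRTFB and MYOCD. At 100 µg/ml 2 members were up and 8 down of 34 tested, with a median log2 fold change of -0.12. Of all tested genes 7.94% were called higher there and 7.51% lower. The count of 8 was 2 without replicate 3 at 100 µg/ml, 5 without replicate 1 or 3 at 0 µg/ml, and 5 with libraries scaled to equal medians. The calponin paralog CNN3 fell to 25.8 ± 1.3 FPKM, against 30.2 ± 0.44 FPKM at 0 µg/ml (log2 fold change -0.22), and the focal adhesion proteins TES and PDLIM7 fell by 0.40 and 0.25 on the log2 scale. CSRP1, a LIM protein of smooth muscle, rose to 262 ± 11 FPKM, against 213 ± 5.1 FPKM (log2 fold change 0.29), and PDLIM5 rose by 0.23. The abundant ACTB, MYL6 and TAGLN2 were not called at 100 µg/ml, and tropomyosin TPM2 fell by 0.18. MYL6 was called lower at 50 µg/ml (limma adjusted p = 0.029). The falling slopes of MYL6 and TAGLN2 were called (0.011 and 0.0052), beside 25.6% of all tested genes with a called slope. The PDLIM7 call was lost in 2 of 29 alternatives (highest adjusted p = 0.089), and the TPM2 call in 4 (0.15).

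The list of other intermediate filament genes and their partners was set beside 7.51% of all tested genes lower and 7.94% higher at 100 µg/ml. Of its 10 tested members 5 fell at that dose and 0 rose. They were the keratins KRT8 (121 ± 1.1 FPKM, against 146 ± 3.1 FPKM at 0 µg/ml), KRT18 (316 ± 2.2 FPKM, against 363 ± 5.2 FPKM) and KRT7 (106 ± 12 FPKM, against 138 ± 10 FPKM), and the lamins LMNB1 and LMNB2. Keratins form the filaments of epithelial cells and lamins those of the nucleus. KRT8 and KRT18 share exonic bases on opposite strands, KRT7 overlaps KRT7-AS and LMNB2 overlaps TIMM13, so their reads cannot be fully assigned. Removal of replicate 3 of the 100 µg/ml group took the KRT7 call away (adjusted p = 0.057).

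**Figure D5:**
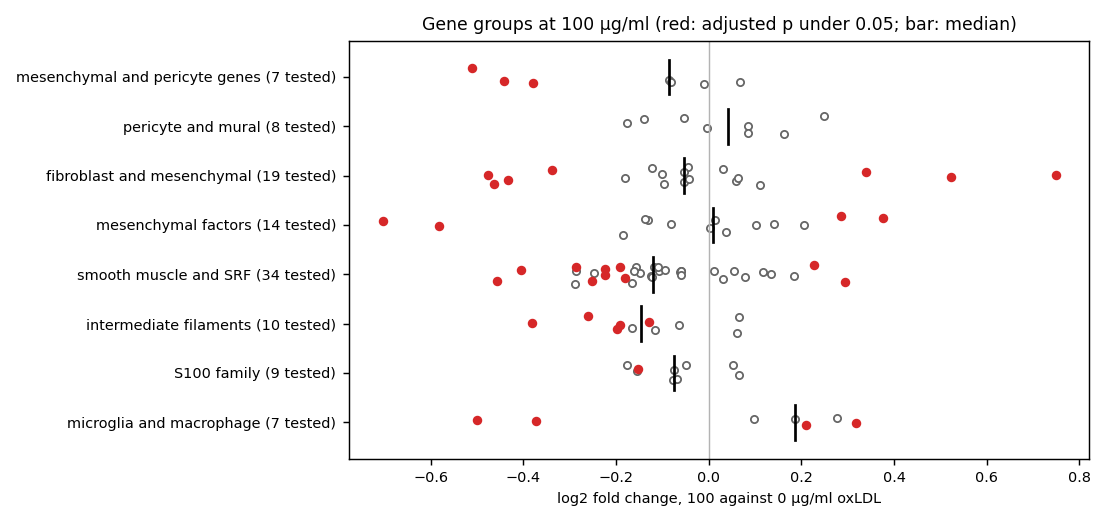
Log2 fold change at 100 against 0 µg/ml of each tested gene, by gene group, with red points for an adjusted p under 0.05 and a black bar at the median of the group. The mesenchymal and pericyte genes have 3 red points, all below 0, and fibroblast genes have red points on both sides.

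Of the 7 listed microglia and macrophage markers 2 rose and 2 fell at 100 µg/ml, beside 7.94% of all tested genes higher and 7.51% lower. RUNX1 rose to 9.11 ± 0.34 FPKM, against 7.80 ± 0.25 FPKM at 0 µg/ml. CD14, the lipopolysaccharide co-receptor, fell to 0.630 ± 0.23 FPKM, against 1.08 ± 0.098 FPKM, and CD74, the invariant chain, to 1.55 ± 0.13 FPKM, against 2.16 ± 0.31 FPKM. Without the 6 libraries numbered 3 neither fall nor the rise of RUNX1 was called (adjusted p = 0.075 for RUNX1). The fall of CD14 was also lost on removal of replicate 2 or 3 at 100 µg/ml or of replicate 2 or 3 at 0 µg/ml. The part of these markers in the fall of THY1, PDGFRB and CNN1 was not tested.

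The genes whose profile over the 18 libraries was nearest to each of the 3 falling genes were found by the root mean square difference of log2(FPKM + 0.5), each gene centred on its mean at 0 µg/ml, among 10088 candidates. Nearest to THY1 were ACAT2, an enzyme of cholesterol synthesis whose exons overlap SOD2 and TCP1 (difference 0.034), the proteoglycan SDC4 (0.035) and the endocytic protein EHD1 (0.038), where the median over candidates was 0.23. Nearest to PDGFRB were the matrix genes CCDC80 (0.065), THBS2 (0.066) and COL1A1 (0.066), with a median of 0.29. Nearest to CNN1 were SPARC (0.064), KRT7 (0.065) and the nucleotide synthesis enzyme PRPS1 (0.081), with a median of 0.30. The libraries are the same for every gene, so the differences describe profiles and carry no test.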

How the data were processed

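RNA of 18 libraries was measured by poly-A sequencing on an Illumina NovaSeq, per the labels' protocols. The authors deposited FPKM values of 13992 gene symbols in 1 table. Named without roles in the submitters' processing notes are the build hg38, the tools featureCounts and DESeq2, and HISAT2 2.0.5. The annotation release and the strand setting are not given in the sources used here, and the library kit does not mark strand.

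FPKM summed to 386396 to 413363 per library. Read numbers recovered from the steps of the FPKM values (100% of genes whole within 0.05 reads) gave 13919066 to 37382244 reads per library. The lowest genes meet that limit at a very short length, so the 100% is no check on them. SYT1, for example, met it at 20 bases, against 6494 annotated exonic bases. Genes with at least 0.5 FPKM in at least 3 libraries were tested (12127; 1865 were below) with limma 3.58.1 in R 4.3.3 on log2(FPKM + 0.5), with a mean per dose, a variance trend and 12 residual degrees of freedom. Fold changes on this scale understate low genes. Adjusted p-values are Benjamini-Hochberg over all tested genes, called under 0.05. The procedure was tested on simulated data. The alternatives were another pseudocount, filter, scaling, replicate block, fit to the doses compared, variance trend or limma-voom on the recovered reads, and each library left out.

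The members and gene lists were chosen with earlier results of these data known. All members were named, and from each list up to 5 called genes with the smallest adjusted p at 100 µg/ml and the 4 genes highest at 0 µg/ml, with further genes said to be chosen after their values were seen. The values of 1 gene that this rule names are not reported here.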

Additional observations from a re-analysis of the deposited data

How the results depend on the processing

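Across 29 alternatives, 1710 values of 59 log2 fold changes and slopes were recomputed: 1622 kept their sign and their side of the threshold, 76 lost the call, 4 gained it and 8 changed sign. The falls of THY1 at 50 and 100 µg/ml and of PDGFRB at 100 µg/ml were called in all 29 (highest adjusted p by limma 0.018, 0.0026 and 0.013). CNN1 at 100 µg/ml, with log2 fold changes of -0.50 to -0.35 when 1 library was left out, lost its call in 3. CNN1 at 50 µg/ml gained it in the fit to the doses compared (adjusted p = 0.046), with limma-voom (0.024) and without replicate 3 at 10 µg/ml. Signs changed only near 0. With all libraries numbered 3 left out, S100A4 at 50 µg/ml was 0.0085 and VIM at 100 µg/ml 0.032. Leaving out 1 library gave -0.34 to 0.0082 for S100A4 and -0.084 to 0.031 for CSPG4 at 50 µg/ml, -0.035 to 0.016 for VIM at 100 µg/ml, and -0.19 to 0.019 for CNN1 at 100 against 50 µg/ml.

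Of all genes, 0 were called at 1 µg/ml (365 at an unadjusted p under 0.05, and 1 called in the fit to the doses compared) and 0 at 2.5 µg/ml (531 unadjusted). At 10 µg/ml 5 were called, against 2 without the filter, with equal medians and with quantile normalization, 1 without the variance trend or in the fit to the doses compared, and 0 to 6 with 1 library left out. At 50 µg/ml the count of 906 was 458 to 1027 with 1 library left out (458 and 500 without replicates 1 and 3 at 0 µg/ml, 475 and 584 without replicates 3 and 2 at 50 µg/ml). At 100 µg/ml the count of 1874 was 1204 to 2011, the lowest without replicate 3 at 100 µg/ml. With limma-voom 52 genes differed between 100 and 50 µg/ml, against 34. Without the 6 libraries numbered 3, which leaves fewer samples, the counts were 0 at 10 µg/ml, 570 at 50 µg/ml, 1808 for the slope (3109) and 1160 for any change over doses (1862). The scalings moved the median of all genes at 50 and 100 µg/ml by under 0.01 on the log2 scale. At 10 µg/ml the log2 fold change of THY1 was -0.17 with equal medians, against -0.15. Depth limits S100A4 most, at 29 to 93 reads per library.

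Replicate numbers are not stated to pair libraries. Same-numbered libraries of different doses had deviations correlated at a median r of 0.011 (-0.33 to 0.24 over 45 pairs, 10 above 0.1), and 5 of 18 libraries correlated best with their own number. With the replicate number as a block, 9 genes were called at 10 µg/ml and CNN1 passed at 50 µg/ml (limma adjusted p = 0.023).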

Other observations

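Of the S100 family, S100A1, S100A3 and S100A5 stood at 5.46 ± 0.44, 4.09 ± 0.49 and 0.153 ± 0.042 FPKM at 0 µg/ml, near or below S100A4, and 3 others were the most abundant. S100A10 stood at 282 ± 14 FPKM at 100 µg/ml and 298 ± 22 FPKM at 0 µg/ml, S100A6 at 212 ± 4.9 and 224 ± 22 FPKM, and S100A11 at 224 ± 7.9 and 216 ± 16 FPKM. Beside 7.51% of all tested genes lower at 100 µg/ml, 1 of 9 tested family members and partners fell. That was ANXA2, the annexin bound by S100A10, at 393 ± 8.7 FPKM against 437 ± 12 FPKM (limma adjusted p = 0.0061). It was not called without the 6 libraries numbered 3 (0.073).

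The counts of other cell type markers at 100 µg/ml stand beside 7.51% of all tested genes lower and 7.94% higher. Of 7 tested epithelial markers 3 fell: KRT8, KRT18 and the epithelial transcription factor ELF3. The last was at 0.477 ± 0.18 FPKM, against 1.60 ± 0.12 FPKM at 0 µg/ml (log2 fold change -1.12, limma adjusted p = 2.1e-05). ELF3 shares exonic bases with ELF3-AS1. Of 6 astrocyte markers 1 fell, NDRG2 (3.49 ± 0.16 FPKM, against 4.03 ± 0.23 FPKM), and of 2 oligodendrocyte markers 1, CNP (33.3 ± 0.64 FPKM, against 35.8 ± 0.31 FPKM). The NDRG2 call was lost in 4 of 29 alternatives (adjusted p up to 0.21), among them removal of replicate 3 at 100 or at 0 µg/ml. The CNP call was lost in 8 (up to 0.12), among them removal of replicate 2 or 3 at 100 µg/ml or of any replicate at 0 µg/ml. Of 3 neuron markers 1 fell, TUBB3, a tubulin (26.8 ± 1.4 FPKM, against 31.6 ± 0.86 FPKM, adjusted p = 0.0019). Of 3 endothelial markers 0 were called by limma or limma-voom. An unadjusted limma p under 0.05 was seen for 0 of them, beside 3403 of all 12127 tested genes.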
